A study of Caenorhabditis elegans with 2 samples.

Results

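The numbered cuticle collagen genes of Caenorhabditis elegans are the protein-coding genes that the Ensembl WBcel235 annotation names col- followed by a number, and dpy-13 was taken with them. There were 157 such genes among 19973 protein-coding genes. Membership rests on the name alone, and whether each product is a collagen of the cuticle was not checked. They lay on chromosomes IV (42 genes), V (31), X (27), II (24), I (21) and III (12). Anti-GFP chromatin immunoprecipitation and sequencing (ChIP-seq) had been done on 1 group of 2 biological replicates, and the question here is where candidate peaks fell at these genes. Both replicates were whole young adults, 65 h old, of strain OP808. This strain carries the integrated transgene wgIs808, in which a fosmid copy of the homeodomain gene ceh-58 is fused to TY1, EGFP and 3xFLAG tags, together with an unc-119(+) rescue in an unc-119 (tm4063) background. The fusion comes from this transgene, in 1 strain, and the chromatin of all tissues was mixed, so no signal can be placed in a cell type. No second condition, untagged strain or other time point was used, and the data of the control experiment were not analysed here.

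Cuticle collagens form the exoskeleton of the worm. The hypodermis, the epidermal layer under the cuticle, makes and secretes them in waves around each molt, and they are then trimmed and cross-linked outside the cell. Their central part repeats glycine followed by a pair of other residues, often prolines, so that chains wind into a triple helix. Glycine codons begin with GG and proline codons with CC, and coding sequence of this kind is rich in G and C.

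Coding sequence at reproducible peaks is printed here as an example of this repeat. The stretches below are from 5 peaks of the authors' conservative list (peaks reproducible between the replicates) with a summit in the coding sequence of a collagen gene, of 7 in all. The sequence runs 5′ to 3′ on the gene's strand, from up to 60 bp before to 60 bp after the summit and no further than the exon. It was read from the RefSeq genome of the same build, WBcel235 (ce11), and whole in-frame codons that begin with GG, which encode glycine, are in capitals.
col-97, chrIII:12993094-12993214, minus strand: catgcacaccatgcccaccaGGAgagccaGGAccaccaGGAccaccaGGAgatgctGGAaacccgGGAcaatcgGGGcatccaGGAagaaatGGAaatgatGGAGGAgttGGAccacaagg
dpy-13, chrIV:4236074-4236194, plus strand: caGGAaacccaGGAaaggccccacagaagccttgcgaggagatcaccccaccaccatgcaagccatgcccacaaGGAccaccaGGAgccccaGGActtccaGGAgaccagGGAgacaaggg
col-141, chrV:6830265-6830385, plus strand: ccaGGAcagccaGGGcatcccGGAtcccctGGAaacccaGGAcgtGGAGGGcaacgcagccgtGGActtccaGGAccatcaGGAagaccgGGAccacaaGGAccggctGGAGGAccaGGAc
col-175, chrX:9233747-9233867, minus strand: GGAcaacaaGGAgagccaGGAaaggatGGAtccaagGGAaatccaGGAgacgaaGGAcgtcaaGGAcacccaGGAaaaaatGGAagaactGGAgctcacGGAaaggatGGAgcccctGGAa
col-176, chrX:10077862-10077978, plus strand: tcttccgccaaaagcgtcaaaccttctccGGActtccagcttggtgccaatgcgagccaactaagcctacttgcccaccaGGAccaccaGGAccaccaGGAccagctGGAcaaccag
Glycine took 12 of 39 whole codons at col-97, 7 of 39 at dpy-13, 15 of 40 at col-141, 14 of 40 at col-175 and 5 of 38 at col-176. The GC content of the printed stretches was 57.9%, 62.0%, 66.1%, 52.9% and 58.1% in the same order. At dpy-13 and col-176 the repeat sits at one or both ends of the stretch, beside other coding sequence.

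Over all 157 genes, codons that begin with GG made up a median of 20.7% of the coding sequence, against 4.85% over all protein-coding genes. Codons that begin with CC, which encode proline, made up 15% against 4.33%. The coding sequence had a median GC content of 55.2%, against 42.5%, and the whole gene body, from the first to the last annotated base with introns, had 49.1% (range 36.5 to 60.4), against 36.4%. The genes were short, with a median length of 1219 bp against 2027 bp, and coding sequence filled a median of 80% of the body, against 50.3%. The lowest glycine codon share, 0.722%, was that of col-17, whose coding sequence gave 19.9% when read from base 3, so the annotated frame and the collagen repeat of this gene do not coincide.

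For each gene, candidates were taken from the list in which the authors ranked peaks by their reproducibility between the replicates. It held 105945 candidates, far more than the 483 of the conservative list, so most candidates are not called peaks. Each has a signal, the authors' own value over both replicates, and a signal in each replicate, given in a first and a second replicate column. Promoter windows began 1000 bp upstream of any annotated transcript start and ended 200 bp downstream of it. A signal was counted as high when it lay in the top 10% of all candidates, at 38.3 or more. The number of reads behind a candidate is unknown, and no interval could be given for a signal.

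Gene bodies, not promoters, held the higher candidates. A candidate summit lay in the body of 146 of the 157 collagen genes (93.0%), where the share of all protein-coding genes was 83.2%. The highest body candidate of each gene had a median signal of 38.6 (range 12.6 to 106), against 32.5 over all genes with one. It was in the top 10% at 75 collagen genes (47.8%), against 26.0% of all protein-coding genes. A promoter candidate was found at 132 genes (84.1%), against 78.8%, and its median signal of 24.1 (range 2.85 to 95.9) was below the 27.4 of all genes. Promoter candidates in the top 10% were found at 14 genes (8.92%), against 14.3%. Both kinds were present at 128 genes, and the body candidate was the higher at 97 of them (75.8%), against 56.3% of all protein-coding genes with both. The promoter candidate was the higher at 21 genes, and at 10 the same candidate lay in both windows.

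**Figure D1:**
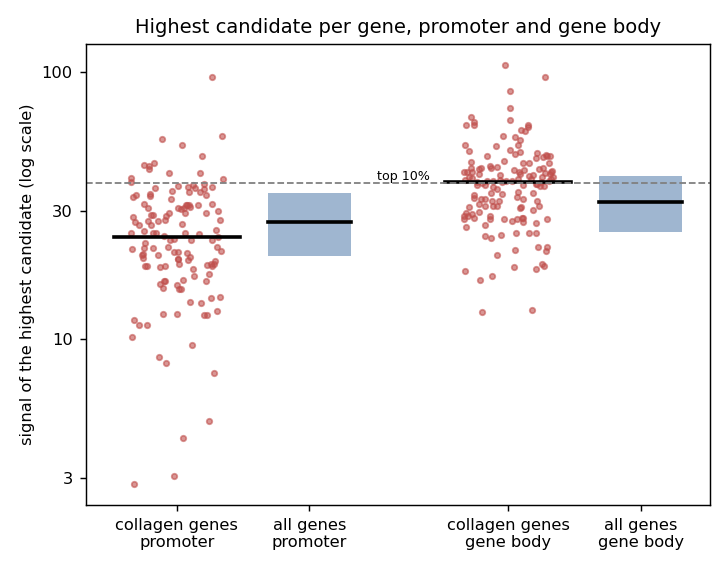
Signal of the highest candidate of each collagen gene (points, log axis, with a black line at the median) in the promoter window (132 genes) and the gene body (146 genes), beside the quartile range (blue bar) and median (black line) of all protein-coding genes with a candidate. The dashed line is the top 10% threshold of 38.3, which 14 promoter candidates and 75 body candidates reached.

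The comparison was repeated against genes of similar build. These were the 1280 other protein-coding genes whose body GC content (40.4 to 55.9%) and length (982 to 2186 bp) lay between the 10th and 90th percentiles of the collagen genes. Of them, 92.9% had a body candidate and 31.9% had one in the top 10%. Of the 107 collagen genes within the same bounds, 98 (91.6%) had a body candidate and 49 (45.8%) had one in the top 10%. Median body signals were 38.4 in these collagen genes and 34.0 in the similar genes. A promoter candidate was present in 83.2% of these collagen genes and 84.9% of the similar genes. In promoters the order of the signals was the opposite, with a median of 22.9 and 6 genes (5.61%) in the top 10%, against 28.3 and 17%. Bodies of like GC content did not give summits of like GC content: the sequence within 100 bp of the summit of the highest body candidate had a median GC content of 58.0% in these collagen genes and 45.8% in the similar genes.

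The conservative list had a summit in 9 gene bodies (5.73%), against 1.29% of all protein-coding genes. Within the bounds of GC content and length it was 6 of 107 (5.61%), against 1.8% of the similar genes. These bounds do not match the GC content at the summit, and conservative peaks were not compared at like summit GC content. In 7 of the 9 the summit lay in coding sequence, and in the other two in an intron. The count was 7 genes (4.46%) in the optimal list, which the authors called on pooled reads, against 2.04%. It was 1 gene in replicate 1's own thresholded list (0.637%, against 0.355%) and 2 in replicate 2's (1.27%, against 0.185%). In promoter windows the conservative list had 2 of the genes (1.27%), col-52 and col-142, against 0.801% of all genes, and 1 within the bounds (0.935%), against 0.781%. The optimal list had 1 (against 1.18%), replicate 1's list 0 (against 0.265%) and replicate 2's list 1 (against 0.120%), each time col-52. A looser threshold, an IDR score of at least 540 in the candidate list, gave 23 gene bodies (14.6%), against 5.93% of all genes, and 14 within the bounds (13.1%), against 8.44%. For promoters it gave 3 (1.91%), against 3.11%, and 1 within the bounds (0.935%), against 4.45%. The IDR score is the authors' scaled log of the irreproducible discovery rate.

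The highest body candidate, at col-85, had a signal of 106, and 62.4 and 42.1 in the first and second replicate columns. It lay in an intron (chrII:12494667-12494902), within 200 bp of a tRNA gene, and was the only body peak at these genes in all 4 thresholded lists. Around it 67.8% of 31-base words occur once in the genome, under the 80% counted as unique here. At col-52 a signal of 95.9, with 54.1 and 42.8 in the replicate columns, also lay in an intron (chrI:4573574-4573809). This position is at -905 bp, that is upstream, from a shorter transcript's start, so it counts as the promoter candidate too. There 5.26% of the words occur once, so the copy that the reads came from is uncertain. These 2 intronic peaks were the ones that recurred in a replicate's own thresholded list, col-85 in both and col-52 in replicate 2's.

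Coding peaks of the conservative list were lower and lay in sequence that is unique. At col-65 the signal was 84.6, with 37.8 and 41.7 in the replicate columns, and the summit lay 954 bp from the start (chrI:11489506-11489741) in sequence of 66.7% GC. The peak of col-97, whose repeat is printed above, had 73.0, with 39.2 and 27.8. At col-50 (chrI:3651929-3652164) the signal was 65.8, with 30.8 and 30.7. The col-175 peak had 64.6 (34.2 and 28.0), and the col-176 peak had 63.3 (34.6 and 30.9). In all 7 of these coding peaks, dpy-13 and col-141 included, both replicate columns were above their own top 10% thresholds of 22.9 and 19.7. The conservative list was chosen for reproducibility between the same replicates, so this is not separate support for the peaks.

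The gene dpy-13 encodes a cuticle collagen needed for normal body shape, and mutants are short and stout. Its body candidate had a signal of 59.8, with 35.2 and 28.8 in the replicate columns, and its summit lay 520 bp from the start (chrIV:4236016-4236251), in both the conservative and the optimal list. The promoter candidate of dpy-13 was lower in both columns, at 34.6 with 18.3 and 12.5. The col-141 body peak had 53.3, with 29.5 and 32.5. It lies upstream of the next gene, at -852 bp from the start of col-142, and is therefore also the conservative promoter peak of col-142. The candidate in the body of col-142 itself was higher in the combined signal, at 67.8, but its replicate values of 44.5 and 19.7 lay further apart and it was not in a thresholded list.

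The optimal list added col-72 and col-17. At col-72 the signal was 63.3, with 40.1 and 21.0, in an intron within 200 bp of a tRNA gene. At col-17 it was 55.4, with 29.1 and 27.1, in coding sequence that is 72.5% unique. Among the 10 highest body candidates, col-99 had 63.4, with 34.4 and 19.7, again in an intron within 200 bp of a tRNA gene. Thus the highest candidates of col-85, col-99 and col-72 lay near tRNA genes, and no other gene's highest body candidate did. The part of these tRNA genes in the signals was not tested. With candidates near RNA genes left out, 73 of the collagen genes still had a body candidate in the top 10%.

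The replicate signals of the highest candidates were loosely correlated across genes. Across the 146 highest body candidates, which share the same libraries, Pearson's r between the log2 signals of the replicate columns was 0.326 and Spearman's rho 0.273. Over all 16627 protein-coding genes with a body candidate they were 0.239 and 0.221. For the 132 promoter candidates r was 0.193 and rho 0.189, and for all genes 0.253 and 0.244. These candidates were picked by the combined signal of both replicates, so r and rho do not measure agreement over all candidates. The highest body candidate was in the top 10% of both columns at 25 of 157 collagen genes, a share above the 7.24% of all protein-coding genes. The highest promoter candidate was so at 4 of 157, a share below the 3.93% of all protein-coding genes. Of entries in the first column, 51254 of 105945 equalled an entry of replicate 1's own candidate list in position and signal, and 0 equalled one of replicate 2's. For the second column the numbers were 0 and 52020.

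The excess in bodies was present in each replicate's own candidate list. A body candidate of any signal was present at 131 of 157 genes in replicate 1's list (background 71.4%) and at 136 in replicate 2's (72.2%). A promoter candidate was present at 86 and 87 of 157, shares below the backgrounds of 57.9 and 57.5%. In replicate 1's list, 43 collagen gene bodies (27.4%) had a candidate in that list's top 10%, against 16.5% of all protein-coding genes, and 29 of the 107 within the bounds (27.1%) did, against 20.5% of the similar genes. In replicate 2's list there were 42 (26.8%), against 15.7%, and 28 within the bounds (26.2%), against 18.9%. The same 18 genes (11.5%) were in the top 10% in both, against 6.43% of all genes. Median body signals were 22.6 against 20.7 over all genes in replicate 1, and 19.7 against 17.5 in replicate 2. Promoters again lay lower. Their medians were 17.5 against 18.5 in replicate 1 and 14.9 against 15.7 in replicate 2, and 3 genes (1.91%) were in the top 10% in both, against 2.36%. Singly, 10 promoters were in it in replicate 1 (6.37%, against 8.60%) and 14 in replicate 2 (8.92%, against 8.03%). Within the bounds these were 7 (6.54%, against 11.0%) and 8 (7.48%, against 10.5%).

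**Figure D2:**
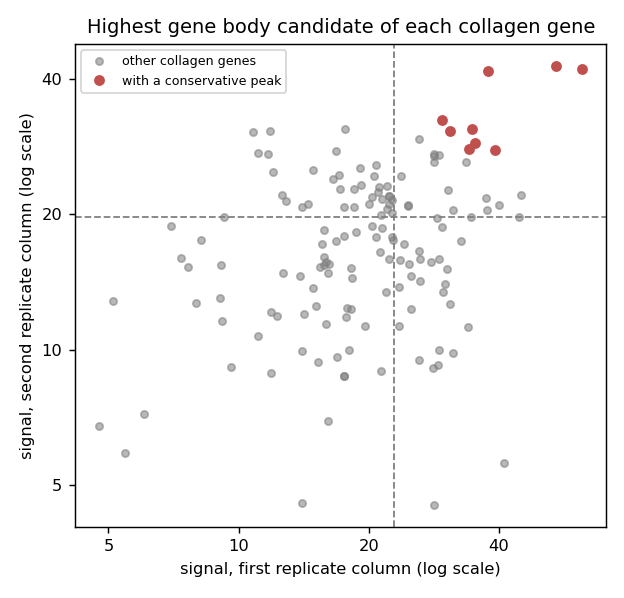
Signal of the highest body candidate of 146 collagen genes in the first (x) and second (y) replicate column, both on log axes, with genes whose body held a conservative peak in red. Dashed lines are the top 10% thresholds of 22.9 and 19.7, and all 9 red points lie above both. The conservative list was itself chosen for reproducibility between the replicates.

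Promoter candidates were led by the intronic col-52 peak described above. Next came col-73, with 57.4 and replicate values of 39.6 and 14, and col-42, with 55.9 and 31.2 and 25.5. The sequence at the highest promoter candidates that lay outside all exons, in unique sequence and away from RNA genes is given for 50 bp to either side of the summit, on the gene's strand. It was searched for TAATTA, a palindrome bound by many homeodomain proteins, and a match would be in capitals.
col-73, chrII:4873465-4873565, minus strand: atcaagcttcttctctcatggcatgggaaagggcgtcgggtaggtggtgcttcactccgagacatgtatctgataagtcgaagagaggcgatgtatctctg
col-42, chrV:18638085-18638185, plus strand: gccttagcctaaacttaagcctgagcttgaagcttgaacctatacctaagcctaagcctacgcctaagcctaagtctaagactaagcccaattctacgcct
col-110, chrIV:4610399-4610499, minus strand: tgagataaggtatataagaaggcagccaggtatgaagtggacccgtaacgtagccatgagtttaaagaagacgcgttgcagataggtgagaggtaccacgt
None of the 3 stretches holds TAATTA. The 6 bases gcctaa, a repeat unit noticed after the stretch was seen, occur 4 times at col-42. Within 50 bp of the highest promoter candidate, TAATTA was found at 7 of 132 collagen genes (5.30%), against 3.35% of all protein-coding genes with a promoter candidate. Within 50 bp of the highest body candidate it was found at 0 of 146, against 2.78%, and 3.30% of all candidates held it. TAATTA holds no G or C. The sequence around the highest body summits had a median GC content of 57.2% in collagen genes, against 40.3% over all genes. So the 0 cannot be told apart from this difference in base composition, and no result about the motif is read from it.

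After col-142 (53.3) came col-47 with 48.3, from a summit in an exon of the overlapping gene col-46, and col-63 with 45.6, from a summit in an exon of ceh-8. The col-110 candidate had 44.6, with 22.6 and 24.3. At col-185 the signal was 44.2, with 37.1 and 13.2, near a tRNA gene. The col-88 candidate had 43.1, and that of col-175 had 41.6, with 14.1 and 20.1. Of the 132 highest promoter candidates, 106 lay outside the gene itself. Another protein-coding gene held 52 (39.4%), against 26.0% of all protein-coding genes with a promoter candidate, and an exon of one held 35 (26.5%), against 18.6%. Their median position was -394 bp from the start.

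Within bodies most of the highest candidates lay in coding sequence. The highest body candidate lay in the gene's own coding sequence at 132 of 146 genes (90.4%), against 60.4% over all protein-coding genes with one. An intron held 12, against 32.0%, and an untranslated or non-coding exon held 2, against 7.66%. Coding sequence filled a median of 80% of collagen bodies, against 50.3% over all protein-coding genes. The part of this difference in the count of 132 was not tested. In successive stretches of 25% of the gene from its start lay 23, 43, 47 and 33 of the highest candidates, with a median at 54.5% of the length. All 373 pairs of a gene and a candidate in its body were also divided by part. The 278 in coding sequence had a median signal of 29.9 and a median summit GC content of 55.7%. The 75 in introns had 22.4 and 40.3%, and the 20 in untranslated or non-coding exons had 16.9 and 37.0%. Top 10% signals made up 28.8% of the coding group, 16.0% of the intronic one and 10% of the last.

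**Figure D3:**
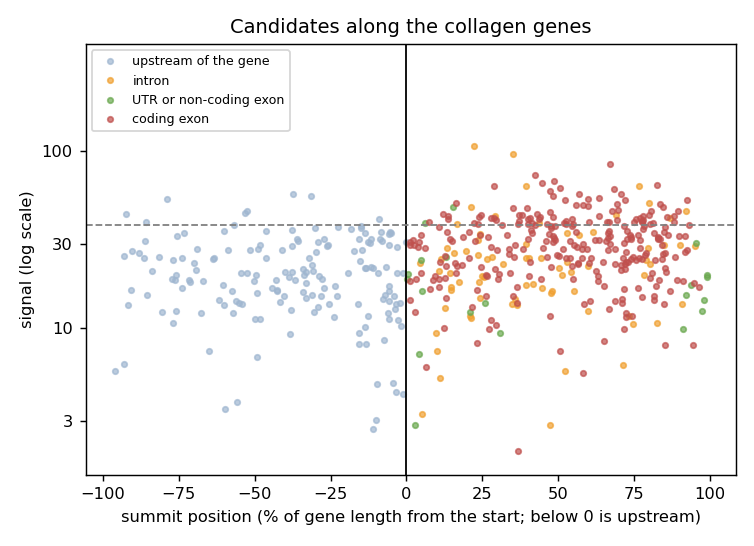
Signal (log axis) of candidates at collagen genes against the position of the summit as a percentage of gene length from the start, out to 1 gene length upstream, coloured by the part of the gene. The dashed line is the top 10% threshold of 38.3. Of the highest body candidates, 132 lay in coding exons, and the 2 highest points are the intronic candidates of col-85 (106) and col-52 (95.9).

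Collagen bodies supplied a large part of the most GC-rich candidates of the genome. The bodies cover 0.366% of the length of all gene bodies. They held 367 distinct candidates, of which 215 (58.6%) had over 50% GC within 100 bp of the summit, against 6.25% of all candidates. Among candidates of over 60% GC, 87 of 395 (22.0%) lay in these bodies, at 76 of the 157 genes. Above 65% GC it was 27 of 75 (36.0%). The share of equally GC-rich sequence that lies in these bodies was not measured, so no excess over it is read from these counts. A body candidate of over 50% GC was found at 133 genes (84.7%), against 15.3% of all protein-coding genes, and at 92 of the 107 within the bounds (86.0%), against 34.5%. In promoters there were 25 (15.9%), against 8.32%, and 15 within the bounds (14%), against 16.2%. Density was also higher, at 1.58 candidates per kb of body against 1.13 over all protein-coding genes.

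Across candidates, signal moved with the GC content at the summit. Over all 105945 candidates Spearman's rho between signal and summit GC content was 0.289, and over the 367 in collagen bodies it was 0.417. Across the 146 collagen genes with a body candidate, rho between its highest signal and the GC content of the gene body was -0.0476. Candidates share libraries, and neighbours share sequence, so these are descriptions. The median signal was 27.3 in collagen bodies and 22.0 elsewhere, and 242 of the 367 (65.9%) were above the median elsewhere. Read within 9 classes of summit GC content, 173 (47.1%) were above the median of the other candidates of their own class. The class median was lower in collagen bodies in 6 classes and higher in 3. From 50 to 55% GC it was 25.6 (64 candidates) against 29.0, and from 55 to 60% it was 31.0 (64) against 31.9. From 60 to 65% GC it was 35.6 (60) against 33.6, and above 65% it was 37.9 (27) against 37.8.

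With the top 10% taken within each GC class, 24 collagen genes had such a candidate in the body (15.3%), against 25.7% of all protein-coding genes. Within the bounds of body GC content and length it was 13 of 107 (12.1%), against 21.1% of the similar genes. The count of 75 against a background of 26.0% thus turned to one below its background. The class thresholds were set with the collagen candidates included. Those in collagen bodies made up 18.8% of the class from 60 to 65% GC and 36.0% of the class above 65%. In promoters the count was 14 under both rules, against 15.1% of all genes by class, and 7 within the bounds (6.54%), against 16.1%. Genes whose highest body candidate had a summit GC content over 55% gave the same order. There were 92 such collagen genes, with a median signal of 38.7 and 47 in the top 10% (51.1%). The 411 other such genes had a median of 42.9, and 65.7% were in the top 10%. These other genes were not matched for length. Whether GC content accounts for the body signals was not tested, and no untagged or input sample was used here to measure it.

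**Figure D4:**
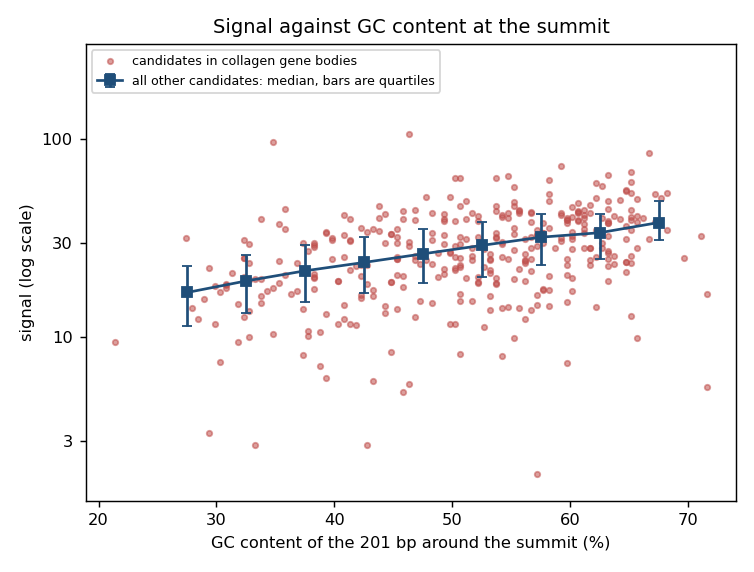
Signal (log axis) of the 367 candidates in collagen gene bodies against the GC content within 100 bp of the summit. Squares are the medians and bars the quartiles of all other candidates in 9 GC classes, of which the first and last are open-ended and drawn at the width of the others. The red points are shifted to high GC content and scatter around the line of the other candidates, with 173 of 367 above their class median.

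Collagen genes with repeated sequence had lower body signals than the rest. Of the 157 genes, 37 (23.6%) had under 80% of their 31-base words found once in the genome, against 9.77% of all protein-coding genes. In the other 120, 115 had a body candidate (95.8%, background of unique genes 85.5%), with a median signal of 39.3, and 65 (54.2%) were in the top 10%, against 26.9% of all genes with unique bodies. In the 37, 31 had one (83.8%, background of non-unique genes 63.1%), with a median of 28.3, and 10 (27.0%) were in the top 10%, against 18.3% of all genes with non-unique bodies. The median body GC content was 48.7% in the unique genes and 51.4% in the others. How multiply mapping reads were treated is not given in the sources used here, and the part of copies in the lower signals was not tested.

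The 5 pairs that share the most coding words lay among the low signals. The coding sequences of col-117 and col-3, neighbours on chromosome IV, were identical over 897 bp, and their highest body signals were 18 and 18.3. Those of col-126 and col-127, also neighbours on IV, were identical over 882 bp, and neither body had a candidate, although their promoters had 20.6 and 32.0. On chromosome V, col-12 and col-13 were 99.5% identical. The col-12 gene had no candidate in either window, and col-13 had 12.6 in its body, the lowest of all 146. At 99.7% identity, col-62 had 22.1 in its body and col-7 had no body candidate. At 98.8%, col-92 and col-94 had 24.9 and 21.4. In all 5 pairs no body signal reached 38.3.

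No candidate in either window was found at 7 genes (col-12, col-54, col-56, col-61, col-133, col-135 and col-137). The background was 10.7% of all protein-coding genes. Of the 7, 5, all but col-12 and col-135, had bodies that were over 90% unique. A body candidate without a promoter candidate was found at 18 genes (11.5%), near the background of 10.5%. A promoter candidate without a body candidate was found at 4 (2.55%, against 6.05% of all genes), namely col-7, col-126, col-127 and col-169, and all of these had bodies under 80% unique.

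**Figure D5:**
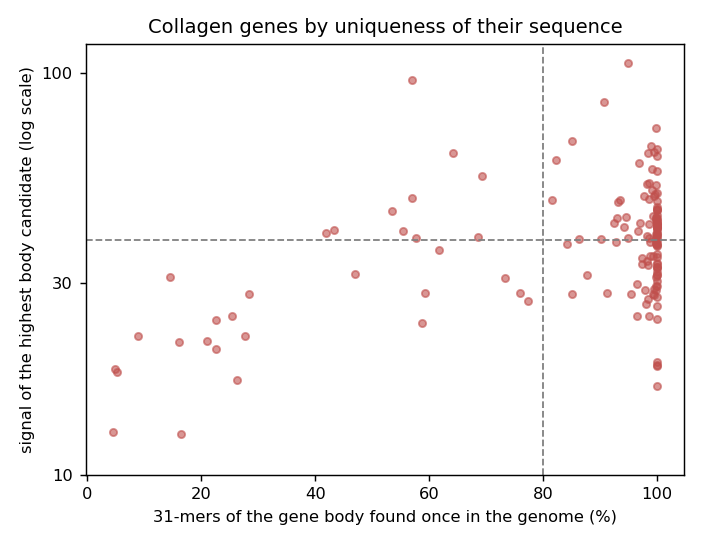
Signal of the highest body candidate (log axis) of the 146 collagen genes with one, against the share of 31-base words of the gene body found once in the genome. Dashed lines mark 80% unique and the top 10% threshold of 38.3. In the 31 genes to the left the median was 28.3, and in the 115 to the right it was 39.3.

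By chromosome the body signals were alike, with medians from 37.0 on V to 40.5 on III. Top 10% body candidates were found at 11 of 21 genes on I (29.5% of all protein-coding genes there), 13 of 24 on II (26.6%) and 7 of 12 on III (29.9%). There were 17 of 42 on IV (24.4%), 14 of 31 on V (21.4%) and 13 of 27 on X (28.5%). The number of collagen genes per chromosome is small, and no order among chromosomes is read from it.

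Cuticle collagens that carry other names have the same repeat, and 19 of them were found in the annotation. Their bodies had a median GC content of 47.6% and a median length of 1228 bp. A body candidate was in the top 10% at 5 of the 19, and a promoter candidate at 1, where the promoter background was 14.3%. The medians of the highest body and promoter signals were 31.8 and 25.4. None had a conservative peak in either window, against 0.801% of all protein-coding genes in promoters and 1.29% in bodies. With 19 genes, a count of 0 is only a description. The highest body signals were 55.3 at lon-3, a collagen that affects body length, with 26.2 and 28.9 in the replicate columns, and 48.3 at dpy-8, with 28.9 and 22.4. So the share of high body signals was near the background of 26.0% in these genes, and no test of the difference from the numbered genes was made. In the genes similar to the numbered ones in GC content and length the background was 31.9%, but not all 19 lie within those bounds.

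The listed genes of collagen processing and cross-linking, which hold enzymes and proteins that act with them, were longer, with a median of 5095 bp and a GC content of 37.7%. Of 11, 7 had a body candidate in the top 10%, where the background was 26.0% of all protein-coding genes and 36.0% of the genes within their range of length (2129 to 14457 bp). A promoter candidate in the top 10% was found at 0 of them, against 14.3% and 15.7%. With 11 genes these counts are only a description. The protein disulfide isomerase gene pdi-2, whose product is also a subunit of prolyl 4-hydroxylase, had 69.9, with 27.6 and 42.2, in the conservative and the optimal list. The prolyl 4-hydroxylase subunit gene phy-3 had 53.7, with 30.7 and 22.0. Of 3 basement membrane collagen genes, let-2, a type IV collagen chain, had 52.6 (36.9 and 19.4) and a peak of the optimal list, and emb-9, the other type IV chain, had 39.6 (14.5 and 15). The third, cle-1, had 24.3 (17.8 and 9.29), below the top 10% threshold of 38.3.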

How the data were processed

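Anti-GFP ChIP-seq of 2 biological replicates was analysed from peak lists on assembly ce11, per the labels. The authors deposited a signal per peak and an IDR score, a scaled log of the irreproducible discovery rate of at most 1000. Which aligner and peak caller were used, in which version, is not given in the sources used here. There were 4 candidate lists (105945 between replicates, 114919 from pooled reads, 60288 and 58742 for replicates 1 and 2) and 4 thresholded lists (483 conservative, 732 optimal, 156 and 92). Read depth is unknown, signals were not rescaled between libraries, and no statistical test was run.

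Summits were placed on Ensembl release 115 gene models, and sequence came from the RefSeq genome of the same build. GC content and unique sequence were taken within 100 bp of the summit, and sequence counted as unique where at least 80% of 31-base words occur once in the genome. The genes, the lists and the alternatives were chosen with earlier results of these data known. Named genes are those with a thresholded peak, the 10 highest per window, dpy-13, the 5 pairs sharing most sequence, genes without candidates and, of other lists, genes with a thresholded peak and the top 2. Genes named beyond these were chosen after their values were seen. Cuticle collagen lists come from gene names, and ram-4 was not found under that name. Identity is 1 minus edit distance per length (edlib 1.3.9.post1). Window assignment was tested on simulated data. Python 3.11.15, numpy 2.4.6, pandas 2.3.3, scipy 1.17.1 and matplotlib 3.10.9 were used.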

Additional observations from a re-analysis of the deposited data

How the results depend on the processing

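Of 78 values recomputed under other settings, 46 stayed within 1.5 times the reported count, or within 1 SD between replicates for a median, and 32 did not. Restriction to candidates with an IDR score of at least 540 left 3 genes in promoters and 23 in bodies (backgrounds 3.11 and 5.93%), and 3 and 22 of these in the top 10%. The narrower window of 500 bp upstream gave 5 promoter candidates in the top 10%, 0 conservative promoter peaks and a median of 21.4, and the wider one of 2000 bp gave 32, 4 and 30.4. Promoter candidates in the top 20% numbered 31 and in the top 5% 8, and body candidates in the top 5% 37. These counts and medians under other windows and cutoffs were taken for the collagen genes only. No background was computed for them, so they are not to be set beside the backgrounds of the main window. Within GC classes, a setting added after seeing the data, the body count was 24. Conservative promoter peaks numbered 1 in the optimal list, 1 at the highest IDR score and 1 without near-identical copies, and conservative body peaks at the highest score 3. With 1 replicate's list alone, there were 86 to 87 genes with a promoter candidate, 0 to 1 with a thresholded promoter peak and 1 to 2 with a body peak. Medians were then 14.9 to 17.5 in promoters and 19.7 to 22.6 in bodies, body candidates in the top 10% numbered 42 to 43, promoter ones 10 to 14, genes with a body candidate 131 to 136, and genes with the higher candidate in the body 45 to 46. Each such list is shorter and on its own signal scale, and the number of genes with both candidates in it is not given. No paired analysis was possible because there was 1 group only. The cause of the other shifts was not tested.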
